A study of Mus musculus with 6 samples.

Results

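The promoters of the cytosolic ribosomal proteins were examined for chromatin binding of CDK6, a cell cycle kinase that also takes part in gene regulation without a DNA-binding domain of its own. The 76 members were the protein-coding genes of the GENCODE M21 annotation whose symbol is Rpl or Rps with digits and an optional a or x, together with Rplp0, Rplp1, Rplp2 and Rpsa. They were 76 of 22028 protein-coding genes, with 30 genes of the small subunit and 46 of the large subunit, and lay on 19 chromosomes with 4 of them on the X chromosome. Genes for ribosomal protein S6 kinases and pseudogenes were left out, as were relatives such as Fau and Rps3a1, whose symbols fall outside the pattern. A promoter reached from 2000 bp before any annotated transcript start to 200 bp past it, and it counted as occupied when at least 1 bp of a peak lay inside it.

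ChIP-seq with an antibody to the HA epitope (ab9110) was performed in mouse BCR-ABL(p185)+ pre/pro B cells, a model of B-lymphoid leukemia driven by the BCR::ABL1 fusion kinase. All lines were Cdk6-/- and overexpressed an HA-tagged CDK6 introduced from outside, so that the antibody was directed at the introduced protein. One group carried HA-tagged CDK6-WT (2 libraries) and the other HA-tagged CDK6-K43M (2 libraries), a form without kinase activity, and the comparison asks whether CDK6 needs that activity to sit on chromatin. Chromatin had been crosslinked with DSG and formaldehyde, and 1 list of peaks was analysed per library, while the inputs were not analysed here. The labels number the libraries 1 and 2 in each variant without saying whether these were separate lines, cultures or days, so the spread between them may be technical. The lists hold no transcript levels, and the identity of the cells could not be checked against marker genes.

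The ribosomal proteins build the small and the large subunit around the ribosomal RNAs, and cells make them in near equal amounts from some of the most active genes known. Their mRNAs start with a C and a run of pyrimidines, the terminal oligopyrimidine (TOP) motif, through which growth signals set their translation. The promoters are short and rich in CpG, and binding sites for ETS factors such as GABP, for SP1 and for YY1 are common in them.

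The DNA of 8 promoters is printed here from the genome of build GRCm38.p6 (mm10), each as 120 bases before an annotated start and the first 15 bases from it, in the direction of transcription. The start chosen was the one nearest to the summit of the strongest peak. Rpl27a, Rps20 and Rpl3 had the highest mean peak rank of all members, and Rpl23a had the lowest among those with a peak in every list. Rps18 and Rpl15 were added after the values were seen as the highest ranked remaining members with an ETS word at the summit, and Rpl18 and Rps16 as the highest ranked with a pyrimidine tract of at least 8 bases. Capitals mark every match, on either strand, to the words ETS (CCGGAAG), YY1 (AANATGGC), SP1 (GGGCGG), NFY (CCAAT), E-box (CACGTG), RUNX (TGTGGT) and TATA box (TATAAA), and the pyrimidine tract at the start.
Rpl27a, chr7:109519027-109519161, plus strand: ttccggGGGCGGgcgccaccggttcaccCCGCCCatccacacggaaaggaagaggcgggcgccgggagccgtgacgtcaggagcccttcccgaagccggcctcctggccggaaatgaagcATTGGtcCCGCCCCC
Rps20, chr4:3835651-3835785, minus strand: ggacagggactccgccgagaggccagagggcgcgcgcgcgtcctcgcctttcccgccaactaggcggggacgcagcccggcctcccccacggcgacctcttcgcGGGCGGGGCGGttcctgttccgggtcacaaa
Rpl3, chr15:80083392-80083526, minus strand: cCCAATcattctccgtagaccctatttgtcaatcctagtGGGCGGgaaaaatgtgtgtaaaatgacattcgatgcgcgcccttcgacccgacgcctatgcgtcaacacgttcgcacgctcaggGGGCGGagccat
Rpl23a, chr11:78183570-78183704, minus strand: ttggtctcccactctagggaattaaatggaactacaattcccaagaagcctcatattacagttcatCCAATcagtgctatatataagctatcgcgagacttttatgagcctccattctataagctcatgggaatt
Rps18, chr17:33955663-33955797, minus strand: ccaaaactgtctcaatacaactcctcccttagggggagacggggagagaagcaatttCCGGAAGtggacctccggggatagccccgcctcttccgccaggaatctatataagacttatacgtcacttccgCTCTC
Rpl15, chr14:18271053-18271187, minus strand: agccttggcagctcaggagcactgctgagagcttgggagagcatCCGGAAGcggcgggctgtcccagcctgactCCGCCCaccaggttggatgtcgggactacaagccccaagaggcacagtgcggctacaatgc
Rpl18, chr7:45717951-45718085, plus strand: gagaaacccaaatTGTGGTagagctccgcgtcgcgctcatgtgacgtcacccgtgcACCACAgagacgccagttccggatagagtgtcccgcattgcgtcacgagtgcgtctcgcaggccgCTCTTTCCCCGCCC
Rps16, chr7:28350532-28350666, plus strand: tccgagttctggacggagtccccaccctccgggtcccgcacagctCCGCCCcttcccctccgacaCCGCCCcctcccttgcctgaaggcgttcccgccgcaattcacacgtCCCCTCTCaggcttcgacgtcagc
In Rps20, 2 SP1 words overlap each other, and in Rpl27a and Rpl18 the last SP1 word overlaps the pyrimidine tract. The tract of Rps18 is 11 bases long and runs past the end of the printed stretch. Rps18 and Rpl15 carry the ETS word 63 and 76 bases before the start, whereas Rpl23a holds none of the words but a single NFY match.

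The 4 lists held 35189 and 34729 peaks with CDK6-WT (replicates 1 and 2) and 39797 and 37304 peaks with CDK6-K43M. Read depth is not in the lists but was recovered in relative terms from the peak statistics, at 10.1 and 10.5 treatment reads per kb with CDK6-WT and 12.0 and 9.56 with CDK6-K43M. By this estimate the CDK6-K43M replicate 1 library was the deepest and the CDK6-K43M replicate 2 library the shallowest. The CDK6-WT replicate 2 library was slightly deeper than replicate 1. The estimate uses the smallest peak width of each list, an assumption on which the order depends. These depths move with some of the results given here, and their part in them was not tested.

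Every ribosomal protein promoter had a CDK6 peak in at least 2 lists. A peak was present at 76 of 76 promoters in the CDK6-WT replicate 1 list and at 66 in the replicate 2 list, against 47.0% and 40.1% of all protein-coding genes. For CDK6-K43M, 76 promoters had a peak in replicate 1 and 54 in replicate 2, against 48.5% and 39.4% of all genes. No member was without a peak, and the 2 replicate 1 lists held every member, so that the lists differed in the replicate 2 libraries alone. ChIP-seq of a population cannot tell fewer cells with CDK6 at a promoter from less CDK6 per cell.

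**Figure D1:**
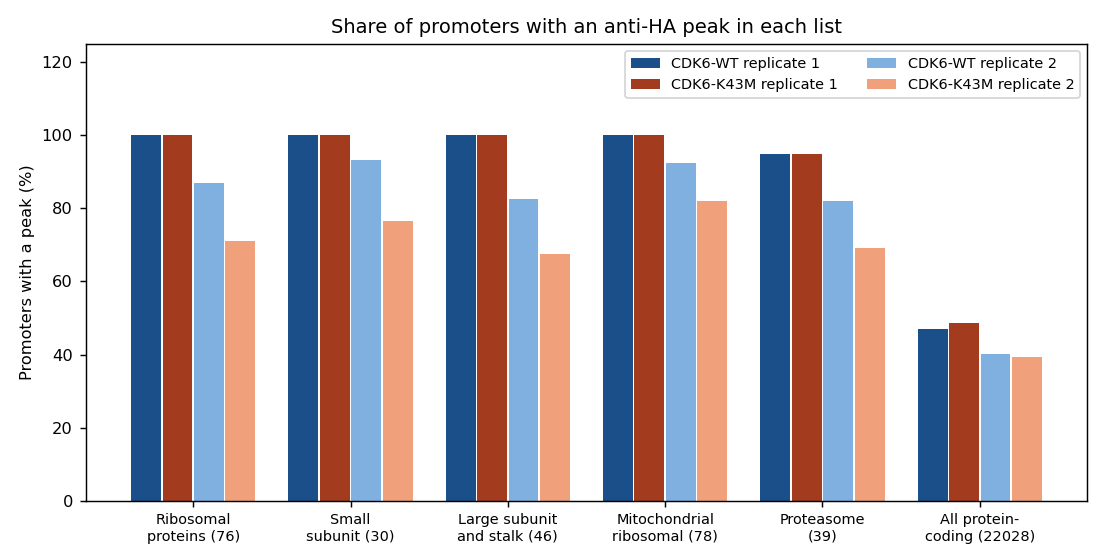
The bars give the share of promoters with an anti-HA peak (%, vertical axis) in each of the 4 lists, for the ribosomal protein genes, their subunits, 2 comparison families and all protein-coding genes, with the number of genes in brackets. Ribosomal protein promoters stand at 100% in both replicate 1 lists, at 86.8% in CDK6-WT replicate 2 and at 71.1% in CDK6-K43M replicate 2.

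Across the lists, 52 of the 76 promoters (68.4%) had a peak in all 4, compared with 33.2% of all genes. Stricter limits on peak strength brought these shares closer together, as given at the end. By the definition of the study, a site is bound by both variants when at least 3 of the 4 libraries have a peak, and 68 promoters (89.5%) met it, compared with 41.3% of all genes. No member was unique to CDK6-WT (a peak in its 2 libraries and in no library of the other variant), a pattern held by 0.0817% of all genes. None was unique to CDK6-K43M, against 0.241% of all genes. The remaining 8 promoters were occupied in the 2 replicate 1 lists but in no replicate 2 list, which 5.67% of all genes did, and no member showed the opposite pattern, which 1.28% of all genes did.

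CpG-rich promoters are occupied more often than others in these lists, and the ribosomal protein promoters are CpG-rich, with a median observed to expected CpG ratio of 0.812 against 0.565 for all genes. Among genes with a ratio of at least 0.6, a peak in all 4 lists was present at 55.6%, and at 51 of the 74 members above that ratio (68.9%). Members also had more annotated starts than other genes, with a median of 6 (range 1 to 14) against 3, which widens the stretch searched. With 1 start per gene, 48 members had a peak in all 4 lists, against 29.0% of all genes.

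The members missing from a replicate 2 list were named in full. Those with a peak in all but CDK6-K43M replicate 2 were Rpl13a, Rpl24, Rpl26, Rpl28, Rpl31, Rpl36a, Rpl4, Rpl41, Rpl8, Rps23, Rps25, Rps27, Rps29 and Rps3. Rpl19 and Rpl5 were missing in CDK6-WT replicate 2 alone. The members missing in both were Rpl10, Rpl14, Rpl17, Rpl37a, Rpl39, Rpl6, Rps4x and Rps9. Absence from CDK6-K43M replicate 2 with a peak in CDK6-WT replicate 2 thus occurred at 14 promoters (18.4%), against 4.88% of all genes, and the reverse at 2 promoters (2.63%), against 4.14%.

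Since every member was present in replicate 1, the replicate 2 lists were also set beside genes of the same kind, a choice made after the data were seen. Of the 10184 genes with a peak in both replicate 1 lists, 80.9% had one in CDK6-WT replicate 2 and 78.6% in CDK6-K43M replicate 2, while 86.8% and 71.1% of the members did. Of the 4317 genes at or above the 80th percentile of peak strength in both replicate 1 lists, 93.7% had a peak in CDK6-WT replicate 2 and 91.4% in CDK6-K43M replicate 2. The 49 members in that class had one at 48 and 41 promoters. The members were therefore above the background in the CDK6-WT library and below it in the CDK6-K43M library of replicate 2, as a description without a test.

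Strength was described by the percentile of the strongest promoter peak within its own list, ranked by the −log10 of its q-value, with 0 for no peak. The median over the 76 members was 89.3 and 52.8 with CDK6-WT and 90.8 and 33.8 with CDK6-K43M (replicates 1 and 2). Over the members that had a peak, the replicate 2 medians were 56.1 with CDK6-WT and 45.9 with CDK6-K43M. All genes with a peak had medians of 78.9 and 59.6 with CDK6-WT and 80.4 and 58.4 with CDK6-K43M. Ribosomal protein promoters thus ranked above other occupied promoters in both replicate 1 lists and below them in both replicate 2 lists, as a description of these lists. At or above the 90th percentile were 35 and 4 members with CDK6-WT and 39 and 0 with CDK6-K43M, compared with 12.8%, 3.40%, 14.3% and 3.55% of all genes in the same order.

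**Figure D2:**
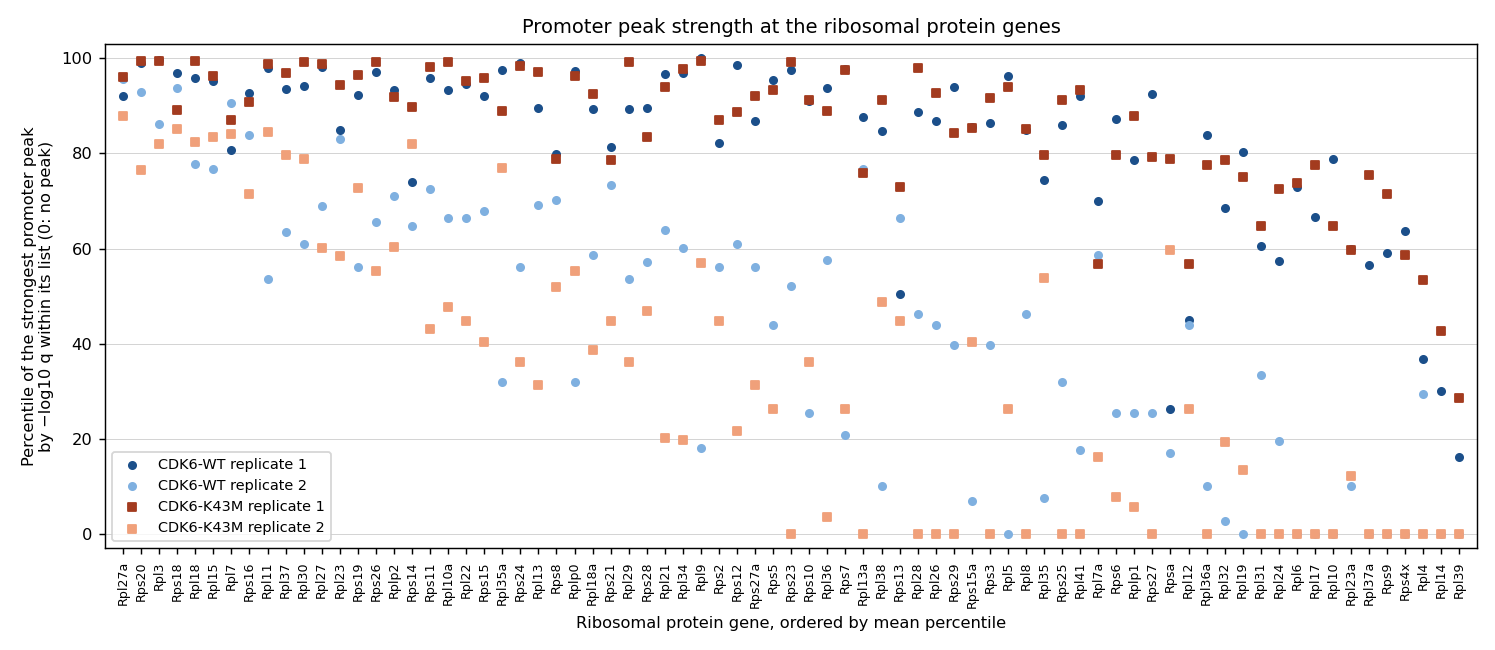
Each column is a ribosomal protein gene, ordered by mean percentile, with 1 member not drawn, and the points give the percentile of its strongest promoter peak in each list (vertical axis, 0 for no peak; circles, CDK6-WT; squares, CDK6-K43M; dark, replicate 1; light, replicate 2). Dark points lie above light points in nearly all columns, and light squares at 0 mark the 22 members without a peak in CDK6-K43M replicate 2.

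The peaks were broader and stronger in replicate 1 than in replicate 2. The median fold enrichment over the local background was 12.1 and 6.16 with CDK6-WT and 12.0 and 5.36 with CDK6-K43M. The number of reads at the summit, recovered from the deposited statistics, had medians of 39 and 18.5 with CDK6-WT and of 47.5 and 14 with CDK6-K43M. The fewest reads at a member summit were 9, at Rps6 in CDK6-K43M replicate 2, so that small differences between replicate 2 peaks rest on few reads. The median width was 570.5 and 302 bp with CDK6-WT and 636 and 285 bp with CDK6-K43M.

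CDK6 lay close to the transcript start. The summit was within 200 bp of the nearest annotated start at 73 of 76 and 58 of 66 promoters with CDK6-WT, and at 74 of 76 and 47 of 54 promoters with CDK6-K43M. The median distance was -38.5 and -50 bp with CDK6-WT and -28.5 and -66.5 bp with CDK6-K43M, where a negative value is upstream. Peaks were taken from windows around the starts, and members had a median of 6 annotated starts against 3 for all genes, which can shorten these distances. The distances of all genes were not set beside them, so closeness to the start is not shown to be particular to the family. Rpl4, which lines the exit tunnel of the large subunit, had its CDK6-WT summits farther out, at -587 and -580 bp. The strongest peaks of the 4 lists were not always at 1 position. At 4 members their summits lay over 1000 bp apart, namely Rps14 (27491 bp), Rpl11 (25205 bp), Rpl7 (2125 bp) and Rps15a (1544 bp). In Rps14 and Rpl11 it was the CDK6-K43M replicate 2 peak that lay at another annotated start. A comparison of libraries at these 4 genes therefore sets different sites side by side.

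**Figure D3:**
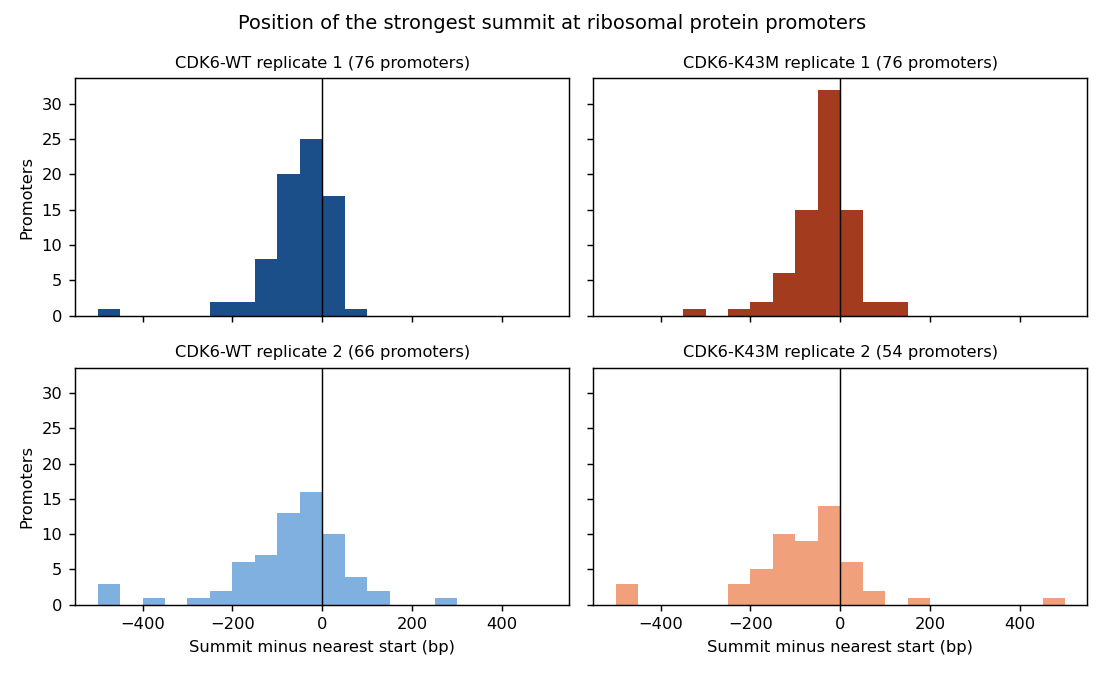
The histograms give the distance of the strongest summit from the nearest annotated transcript start (bp, horizontal axis, bins of 50 bp, negative is upstream) for the ribosomal protein promoters with a peak in each list. Most summits fall between 100 bp upstream and the start in the replicate 1 lists, and the spread is wider in the replicate 2 lists. Values beyond 500 bp were drawn in the outermost bins.

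The strongest promoters by mean percentile were Rpl27a, Rps20, Rpl3, Rps18 and Rpl18. Rpl27a (chromosome 7, 109519147 to 109522367), a large subunit protein, stood at percentiles of 92.2 and 95.6 with CDK6-WT and 96.0 and 87.8 with CDK6-K43M. Rps20, in the head of the small subunit, stood at 99.1 and 93.0 with CDK6-WT and 99.4 and 76.5 with CDK6-K43M. Rpl3, near the peptidyl transferase centre, stood at 99.7 and 86.1 with CDK6-WT and 99.4 and 82.0 with CDK6-K43M. These 3 were high in every library, and their groups overlapped. Rpl18 (95.9 and 77.8 with CDK6-WT, 99.3 and 82.3 with CDK6-K43M) was of the same kind. The highest single value was that of Rpl9, whose promoter was at the 99.97th percentile with 96 reads in CDK6-WT replicate 1 but at 17.9965 in replicate 2, and at 99.3 and 56.9 with CDK6-K43M. By their mean percentile, 14 members were among the top 10% of all genes.

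The weakest were Rpl39, Rpl14, Rpl4, Rps4x and Rps9. Rpl39, a short protein of the exit tunnel on the X chromosome, had percentiles of 16.3 (CDK6-WT) and 28.5 (CDK6-K43M) in replicate 1, with 12 and 15 reads at the summit. Rpl14 had 30.0 and 42.6 in the same lists. Neither had a peak in a replicate 2 list. Rpl4 stood at 36.8 and 29.5 with CDK6-WT and at 53.4 in CDK6-K43M replicate 1. Rps4x, also X-linked, and Rps9 lay at 63.7 and 59.0 in CDK6-WT replicate 1 and at 58.7 and 71.4 in CDK6-K43M replicate 1. Of these 5, Rpl4 alone had a peak in a replicate 2 list, that of CDK6-WT.

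By subunit, 23 of the 30 small subunit promoters had a peak in all 4 lists, and so did 29 of the 46 large subunit promoters. The median percentile of the small subunit was 91.6 and 56.1 with CDK6-WT and 90.2 and 40.3 with CDK6-K43M. That of the large subunit was 88.2 and 45.1 with CDK6-WT and 91.6 and 23.3 with CDK6-K43M. Both subunits showed the order of the whole family, with replicate 2 below replicate 1 and CDK6-K43M lowest in replicate 2.

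Among small subunit proteins of known further roles, Rps6, the substrate of the S6 kinases, stood at 87.2 and 25.5 with CDK6-WT and 79.7 and 7.80 with CDK6-K43M. Rps3, at the mRNA entry and also tied to DNA repair, had 86.5 and 39.8 with CDK6-WT and 91.6 in CDK6-K43M replicate 1, with no peak in replicate 2. Rps27a, made as a fusion with ubiquitin, had 86.9 and 56.1 with CDK6-WT and 92.2 and 31.3 with CDK6-K43M. In each of these 3, the CDK6-K43M replicate 2 library was the lowest and the groups overlapped.

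In the large subunit, Rpl5 and Rpl11 form with the 5S RNA the particle that binds Mdm2 under ribosomal stress. Rpl5 stood at 96.3 in CDK6-WT replicate 1 with no peak in replicate 2, and at 94.0 and 26.4 with CDK6-K43M. Rpl11 had 98.1 and 53.6 with CDK6-WT and 98.7 and 84.5 with CDK6-K43M, where the last value is that of the peak at another start. When each gene was read at 1 merged region, a choice made after the data were seen, that value was 62.5 and the others stayed as they were. Rpl22, which is needed for lymphocyte development, had 94.6 and 66.4 with CDK6-WT and 95.3 and 44.9 with CDK6-K43M. The replicate 1 values of these genes were alike in both variants, and the replicate 2 value was higher with CDK6-K43M in Rpl5 and lower in Rpl22.

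The stalk proteins, which recruit translation factors to the ribosome, had a peak in all 4 lists at 3 of 3 promoters. Rplp0, the base of the stalk, stood at 97.3 and 32.0 with CDK6-WT and 96.2 and 55.4 with CDK6-K43M. Rplp1 had 78.6 and 25.5 with CDK6-WT and 87.9 and 5.63 with CDK6-K43M. Rplp2 had 93.2 and 71.1 with CDK6-WT and 91.9 and 60.3 with CDK6-K43M. The partners of 1 complex did not share an order of the libraries in replicate 2.

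Diamond-Blackfan anaemia, a failure of red cell production, arises from the loss of 1 copy of a ribosomal protein gene. Of 9 such genes, among them Rps19, Rps24, Rps26, Rpl5 and Rpl11, 8 had a peak in all 4 lists and 9 were bound by both variants. Rps19, the one mutated most often, stood at 92.3 and 56.1 with CDK6-WT and 96.5 and 72.7 with CDK6-K43M. Within replicate 2, the CDK6-K43M percentile was higher in 7 of the 9 genes with a median difference of 15.3, while it was higher in 21 and lower in 47 of all 76 members. Rps24 and Rps26 were the exceptions, and Rpl11 is among the 7 with its peak at another start, which raises the median. No test was made over this list, whose genes are also members. The list is not complete, and other members tied to the disease were not counted in it. The 9 therefore do not show a direction for the disease genes as a whole.

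The variants were compared at each promoter. Both CDK6-K43M percentiles lay above both CDK6-WT percentiles at 2 promoters (2.63%), against 2.95% of all genes, and below both at 3 promoters (3.95%), against 1.49% of all genes. All genes include 10625 without a peak in any list, which can fall in neither class, while every member had a peak. Among occupied promoters the shares are therefore higher than 2.95% and 1.49%, and the members are not shown to exceed them. The same limit holds for the shares at 1 merged region given below. The exact two-sided permutation test for 2 libraries against 2 cannot give a p below 0.333, so none of these could pass a threshold of 0.05.

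The 2 counted as higher in CDK6-K43M were Rpsa and Rps14, the latter from peaks at different sites. Rpsa, the laminin receptor precursor of the small subunit (chromosome 9, 120127689 to 120132369), had percentiles of 26.4 and 17.2 with CDK6-WT and 78.8 and 59.7 with CDK6-K43M (exact permutation p = 0.333). Its summits held 18 and 13 reads with CDK6-WT and 35 and 16 with CDK6-K43M. Rps14, whose loss underlies the anaemia of the 5q deletion syndrome, had 74.0 and 64.7 with CDK6-WT and 89.7 and 82.0 with CDK6-K43M (exact permutation p = 0.333). The value of 82.0 belongs to the peak at another start, and at the merged region that the other 3 lists share, CDK6-K43M replicate 2 had no peak. Read at 1 merged region per gene, those counted as higher in CDK6-K43M were Rpsa and Rps13 (2.82% of all genes). The 3 lower ones were the same (1.49% of all genes). A merged region counts whole, with any of its peaks outside the promoter window. Within its window, Rps13 stood at 50.5 and 66.4 with CDK6-WT and 73.0 and 44.9 with CDK6-K43M, so that its groups overlapped there. On the scale of summit reads over the lowest background of the list, Rpsa was at 11.7 and 7.51 with CDK6-WT and 18.4 and 10.2 with CDK6-K43M, so that the groups overlapped on this scale.

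The members lower in CDK6-K43M were Rpl13a, Rpl7a and Rps18. Rpl13a stood at 87.7 and 76.7 with CDK6-WT and at 75.8 in CDK6-K43M replicate 1 with no peak in replicate 2. Rpl7a had 70.1 and 58.7 with CDK6-WT and 56.8 and 16.2 with CDK6-K43M. Its CDK6-WT summits lay at -19 and -467 bp from the nearest start, so these values do not compare 1 position. Rps18 had 96.9 and 93.8 with CDK6-WT and 89.1 and 85.1 with CDK6-K43M. Each had an exact permutation p of 0.333. Rps18 remained strongly occupied with both variants, and the 3 were set apart by rank and not by loss of the peak in both CDK6-K43M libraries.

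Over the family, the direction of the difference was not the same in the 2 replicate numbers. In replicate 1 the median difference of percentile (CDK6-K43M minus CDK6-WT) was 1.14, with 47 members higher and 29 lower, against 6495 and 4369 of all genes. In replicate 2 it was -10.97, with 21 higher and 47 lower, against 4773 and 4975 of all genes. The higher share of the members that differed was thus 61.8% and 30.9%, and that of all genes 59.8% and 49.0%. In summit reads over the lowest background, the median ratio of CDK6-K43M to CDK6-WT was 1.02 over 76 members in replicate 1, against 1.01 over all 10184 genes with both peaks. For replicate 2 it was 0.847 over the 52 members with both peaks, against 0.966 over 7761 genes. The first pair of libraries thus differed little at these promoters, and the second differed in favour of CDK6-WT, where the CDK6-K43M library was also the shallower. Members without a peak are left out of the second ratio.

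**Figure D4:**
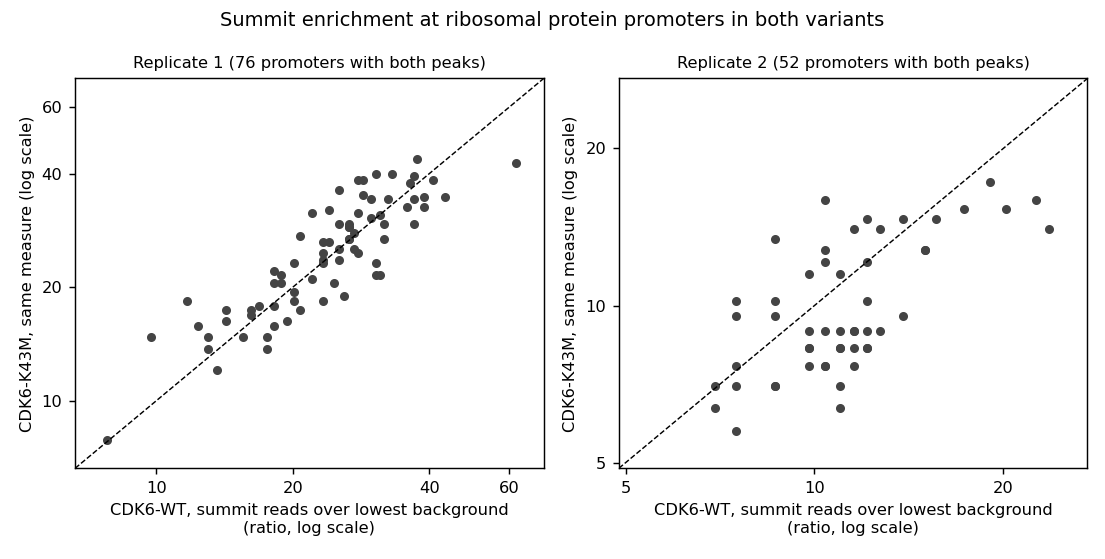
Each point is a ribosomal protein promoter with a peak in both variants, with summit reads over the lowest background of the list with CDK6-WT (horizontal axis, log scale) and CDK6-K43M (vertical axis, log scale), for replicate 1 (left, 76 promoters) and replicate 2 (right, 52 promoters). The points lie around the dashed line of equal values in replicate 1 and mostly below it in replicate 2, with median ratios of 1.02 and 0.847.

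The replicates of 1 variant differed more than the variants did. The same measure in replicate 2 was 0.422 times that in replicate 1 with CDK6-WT (median of 66 members) and 0.364 times with CDK6-K43M (54 members), against 0.526 and 0.498 over all genes with both peaks. The percentile was lower in replicate 2 at 73 of 76 members with CDK6-WT and at 76 of 76 with CDK6-K43M, compared with 84.4% and 85.8% of all genes with a replicate 1 peak. The 3 exceptions in CDK6-WT were Rpl27a, Rpl7 (80.7 in replicate 1 and 90.7 in replicate 2) and Rps13 (50.5 and 66.4), named after their values were seen. In Rpl7 the 2 peaks did not overlap, and in Rps13 the replicate 2 summit lay at another position than the replicate 1 summit, so that these values do not compare 1 position.

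The sequence at the summits was then described, with words counted on both strands within 100 bp of the strongest summit and in equal windows placed 1000 bp away on both sides. The ETS word was present at 29 of 76 members (38.2%), while 18.7% of the 11399 promoters with a peak held it. It was found in 0 of the 152 flanking windows of members and in 1.33% of those of all these promoters, so it was rare in both. The YY1 word was found at 13.2% of members and 7.92% of all these promoters. For SP1 the shares were 48.7% and 52.2%, and for NFY 25.0% and 25.6%. For the E-box they were 9.21% and 8.37%, and for RUNX 10.5% and 10.4%. In the flanking windows of members and of all promoters, the shares were 3.95% and 3.36% for YY1 and 2.63% and 7.36% for SP1. They were 18.4% and 23.3% for NFY, 4.61% and 3.01% for the E-box, and 17.1% and 13.9% for RUNX. RUNX was thus less common at the summits than in the flanks. The TATA box was found at 8 members (10.5%) and 2.78% of the promoters, but the flanking windows held it at 13.8% for members and 12.0% for all promoters. The consensus of NRF-1, the regulator of respiratory genes that the study examined, was present at 3 members (3.95%) and at 4.76% of all promoters with a peak.

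Members with the ETS word, such as Rps18 and Rpl15 printed above, did not rank higher than the rest. Their median of the mean percentile was 60.6 (29 members), and that of the members without it was 67.5 (47 members). A peak in all 4 lists was present at 20 and 32 of them. For SP1 the medians were 67.6 with the word (37 members) and 61.0 without it (39 members). A match says that the letters are present and not that the factor is.

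**Figure D5:**
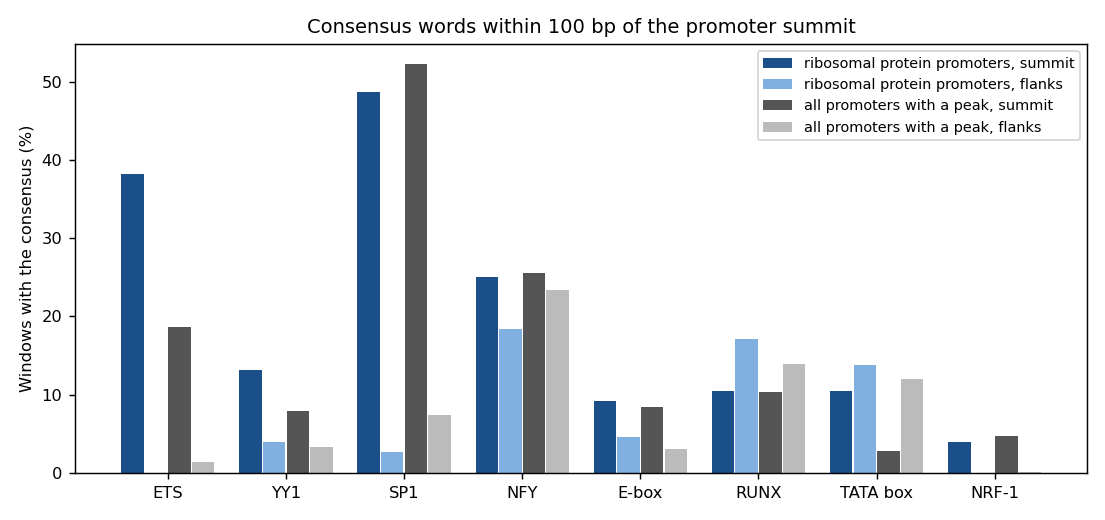
The bars give the share of windows (%, vertical axis) that held each consensus word within 100 bp of the strongest promoter summit or in flanking windows 1000 bp away, for the 76 ribosomal protein promoters and the 11399 protein-coding promoters with a peak. The ETS word stands at 38.2% at ribosomal protein summits and 18.7% at all summits.

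At the transcript start nearest to the summit, a C followed by at least 4 pyrimidines began within 10 bp at 42 of 76 members (55.3%), against 31.2% of all promoters with a peak. A tract of at least 8 bases was found at 24 members (31.6%), against 8.16%. The tract of Rpl32 was the longest, with 17 bases, followed by Rpl22 with 15 and Rpl14 with 14. The mean percentiles of these 3 promoters were 42.3, 75.3 and 18.2, so that tract length did not follow their order by strength. The start positions are those of the annotation and were not measured here.

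Some member peaks also belong to another gene. At 19 members the strongest peak lay in the promoter of another protein-coding gene model as well, which for Rps10 is a readthrough model that includes Rps10 itself. Rpl36a shares it with Btk, the tyrosine kinase of B cell receptor signalling, Rps24 with Polr3a of RNA polymerase III, Rps28 with Ndufa7 of respiratory complex I, and Rpl9 with Lias, which makes lipoic acid. At such promoters the peak cannot be assigned to the ribosomal protein gene alone. The share of all genes with such a peak was not set beside this count, so sharing is not shown to be particular to the family. The others were Rpl12, Rpl15, Rpl18, Rpl35, Rpl35a, Rpl4, Rpl41, Rpl7, Rpl7a, Rps10, Rps18, Rps2, Rps25, Rps27 and Rps27a.

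Other genes of the translation machinery were read from lists chosen for their role. Of 9 relatives of ribosomal proteins outside the rule, 5 had a peak in all 4 lists, among them Fau and Rps27l, Rpl36al had one in both replicate 1 lists alone, and the tissue-restricted paralogs Rpl3l, Rpl10l and Rpl39l had none in any list. Of 13 translation factors and partners whose mRNAs are of the TOP class, 11 had a peak in all 4 lists and 13 were bound by both variants. Eif4b, a helicase cofactor in initiation, stood highest, at 99.5 and 94.1 with CDK6-WT and 98.9 and 92.5 with CDK6-K43M, and Eef1g, a subunit of the elongation factor exchange complex, had 98.8 and 85.3 with CDK6-WT and 98.6 and 85.1 with CDK6-K43M. Both stood at similar values in the 2 variants. Of 20 ribosome biogenesis genes, 14 had a peak in all 4 lists and 18 were bound by both variants. Polr1a, the largest subunit of RNA polymerase I, stood higher in replicate 2 than in replicate 1 in both variants, at 88.1 and 96.3 with CDK6-WT and 85.1 and 98.2 with CDK6-K43M. Larp1, which binds the TOP motif, was occupied in the replicate 1 lists alone (78.6 with CDK6-WT and 72.4 with CDK6-K43M).

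For comparison, the mitochondrial ribosomal proteins had a peak in all 4 lists at 62 of 78 promoters (79.5%) and the proteasome subunits at 26 of 39 (66.7%). In both replicate 1 lists the mitochondrial family was complete, with medians of 88.3 (CDK6-WT) and 90.6 (CDK6-K43M). In replicate 2 its medians were 62.7 with CDK6-WT and 55.4 with CDK6-K43M, and those of the proteasome were 50.1 and 40.3. The cytosolic family, at 52.8 and 33.8, had the lowest CDK6-K43M value of these families. The within-replicate difference had a median of -2.06 over the mitochondrial family and of -0.49 over the proteasome in replicate 2. These families were set side by side without a test of the difference.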

How the data were processed

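Anti-HA ChIP-seq peak lists of 4 libraries were analysed, grouped by the variant and replicate number in their titles. As the study and the submitters' processing notes describe, the authors checked reads with FastQC 0.11.5, trimmed them with Trimmomatic 0.36, aligned them to mm10 (GENCODE M13) with BWA 0.7.15, removed blacklisted regions and multimapping reads with bedtools and SAMtools 1.3.1, and called peaks for each library with MACS2 2.1.0 at default settings, without pooling. The deposited lists give a fold enrichment over local background (a ratio), −log10 values of the p-value and the q-value, a score (10 times −log10 q, cut to an integer) and, as other information, where in the peak the summit lies. Each library's lists start at a q-value of 0.05.

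Promoters were taken from GENCODE M21, on the same build as M13. Percentiles are 100 times the average rank by −log10 q over the number of peaks of the list. Summit reads and local backgrounds were solved from fold enrichment and −log10 p, and 100% of the peaks matched whole reads within 0.001 of the −log10 p. The lowest background of a list is its lowest solved local background. Relative depth is that background divided by the list's scaling factor of reads and by its smallest peak width. These widths were 153 and 165 bp with CDK6-WT and 158 and 164 bp with CDK6-K43M. The width was assumed to be the length that the background covers, and the order of the depths depends on it. The scripts were tested on simulated data. Differences between variants at single promoters were tested with the exact permutation test over 4 libraries. Python 3.11.15, numpy 2.4.6, pandas 2.3.3, scipy 1.17.1, pysam 0.24.0, samtools 1.23.1 and matplotlib 3.10.9 were used.

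The members, lists and tests were chosen with earlier results of these data known. Named members were those without a peak in all 4 lists, the 5 highest and 5 lowest by mean percentile, up to 3 in each direction with variants that did not overlap, and 12 chosen by role. The alternatives took stricter peaks (−log10 q of at least 5 or 10, or the top 10000), other windows, starts, overlaps and ranks, a block for the replicate number, and each library left out in turn. The backgrounds restricted by replicate 1 peaks or CpG ratio, the comparison of summit reads, the reading at 1 merged region per gene (overlapping peaks of the 4 lists joined, and the promoter region with the highest mean percentile taken) and the NRF-1 consensus were added after the data were seen. Some genes of the lists are not reported here by name.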

Additional observations from a re-analysis of the deposited data

Results flagged for a closer look

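The difference between the variants ran in opposite directions in the 2 replicate numbers. The median change of percentile over the 76 ribosomal protein promoters, CDK6-K43M minus CDK6-WT, was 1.14 in replicate 1 and -10.97 in replicate 2. It was picked out because the sign of the median differed between the replicate numbers. The difference between them was not tested, since each rests on 1 pair of libraries.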

How the results depend on the processing

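Over 8 results, 80 alternative values were computed, of which 62 stayed within the spread between replicates or, for counts, within 1.5 times, 15 moved further and 3 reversed. Among the 62 were the 8 read at 1 merged region per gene, chosen after the data were seen. Some of the others could not have moved. Leaving out 1 of 2 libraries shifts a mean of medians by less than their spread, and the paired difference in promoters equals the reported one by its formula. The spread itself rests on 2 libraries per variant, so the 62 do not measure stability. The cause of the moves and reversals was not tested, except that stricter limits leave fewer peaks. Promoters with a peak in all 4 lists (52 as reported) numbered 30 at a minimum −log10 q of 5, 8 at 10 and 7 with the top 10000 peaks, where 23.5%, 8.41% and 5.98% of all genes had one. Promoters bound by both variants (68) numbered 24 at 10 and 18 with the top 10000 peaks, and those in both replicate 1 lists alone (8) numbered 21, 46 and 41. The shares of all genes in these classes were not computed at these settings, so the shifts are not shown to be particular to the family. At 10, a peak was present at 38.6% and 15.8% of all genes with CDK6-WT and at 39.9% and 13.7% with CDK6-K43M (replicates 1 and 2). The difference in promoters with a peak, CDK6-K43M minus CDK6-WT on average, was -6 as reported, -3.5 at 5, 0.5 at 10, 1.5 with the top 10000 peaks and 5 without CDK6-K43M replicate 2, so its sign changed in the last 3 of these. The mean of the CDK6-WT medians, 71.1 as reported, was 44.7 at 10 and with the top 10000 peaks. The number of promoters higher in both CDK6-K43M libraries (2) was 1 at 10, with the top 10000 peaks and with 1 start per gene.

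With one library left out, promoters in all remaining lists numbered 52 to 66, a count that cannot fall below 52, and those bound by both numbered 54 to 76. Bound by both here asked for a peak in the variant's remaining library and in either library of the other variant, a different rule from the reported one. The difference ran from -17 to 5, and the mean of the medians from 52.8 to 89.3 for CDK6-WT and from 33.8 to 90.8 for CDK6-K43M. Replicate numbers share no stated source in the labels. Pairing same-numbered libraries (replicate block), CDK6-K43M was above CDK6-WT within each number at 12 promoters (15.8%), against 12.2% of all genes. It was below at 18 promoters (23.7%), against 9.05% of all genes. Genes without a peak in any list fall in neither class, so the shares among occupied promoters are higher than 12.2% and 9.05%. The mean paired difference in promoters with a peak is -6 by construction. By pair, the counts for CDK6-K43M and CDK6-WT were 76 and 76 in replicate 1 and 54 and 66 in replicate 2. Deviations of same-numbered libraries from their variant's mean percentile correlated at 0.726 over all genes and 0.513 over the members, across genes, which are not replicates. All genes include 10625 without a peak in any list, while every member had a peak, so the 2 values cover unlike sets. With 2 pairs, exact sign flips cannot give a p below 0.5.

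The lists are thresholded and their depth is known in relative terms alone. A missing peak in CDK6-K43M replicate 2, the shallowest library by the estimate used here, does not show absence of CDK6. Summit reads cover peaks that were called, and members under a shared peak cannot be separated.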
